A study of Mus musculus with 8 samples.

Results

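The 86 genes described here encode the nuclear subunits of the mitochondrial respiratory chain and of ATP synthase. They are the protein-coding genes of the count table whose mouse symbol starts with Ndufa, Ndufb, Ndufc, Ndufs, Ndufv, Uqcr, or Atp5, or with Cox and a digit from 4 to 8, together with *Sdha*, *Sdhb*, *Sdhc*, *Sdhd*, and *Cyc1*. The Ndufaf assembly factors were left out, as were 13 genes with a matching symbol that are not annotated as protein coding. The 86 members were taken from 52550 genes and comprised 38 genes of complex I, 4 of complex II, 9 of complex III, 18 of complex IV, and 17 of complex V.

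Complexes I and II pass electrons from NADH and succinate to ubiquinone. Complex III hands them on to cytochrome c, complex IV reduces oxygen with them, and complex V uses the proton gradient built on the way to make ATP. Subunits of complexes I, III, IV, and V come from 2 genomes: most are made on cytosolic ribosomes from nuclear mRNAs and imported, whereas 13 are made inside the organelle from mitochondrial DNA (mtDNA). Complex II is entirely nuclear. eIF4A2 is an RNA helicase of cytosolic translation initiation, so that the nuclear mRNAs of the chain share its compartment.

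RNA was measured by RIP-seq, in which a Flag-tagged protein is pulled down with an anti-Flag antibody (5 µg, 3 h) and the RNA that comes with it is sequenced beside the input lysate. All cells were mouse embryonic stem cells (ESCs) with the genotype *Eif4a2* KO, grown in ES-DMEM-2i. They carried either an empty vector (EV) or a vector for Flag-tagged eIF4A2 (Eif4a2flag in the labels), which per the study's methods was the full-length isoform, called eIF4A2FL here. The 4 groups of 2 libraries were input EV, input eIF4A2FL, RIP EV, and RIP eIF4A2FL. The re-expressing cells were clones with a transposon-based vector, and the study used 2 clones as replicates. What separates the EV replicates is not given in the sources used here, so that p-values measure only the spread between these libraries. The sample type of RIP eIF4A2FL replicate 2 reads Eif4a3, whereas its title, source, and genotype read Eif4a2, and it was kept in its group. This library lay close to its partner: 76 of the 78 members tested differed by less than 2-fold between them on the log2(CPM + 1) scale. This was 97.4% of the members, against 95.2% of all transcripts tested. The 2 input eIF4A2FL libraries also had 76 members within 2-fold of each other, so that this closeness does not check the label.

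Levels are given in CPM, the counts of a gene scaled to the total of reads on genes. QuantSeq reads one tag near the 3′ end of a transcript, so that CPM counts transcript ends and needs no division by length. Reads on genes ranged from 2044853 in RIP EV replicate 1 to 11206420 in RIP eIF4A2FL replicate 1. The biological coefficient of variation between the replicates was 30.1% in input EV, 28.1% in input eIF4A2FL, 171% in RIP EV, and 23.1% in RIP eIF4A2FL. All 10 ESC markers examined were at 1 CPM or more in every input, and their summed level was between 2399 and 3143 CPM in the inputs. Of 4 formative or primed epiblast markers, 3 were at 1 CPM or more in every input, with sums between 103 and 198 CPM. Of 7 germ layer and extraembryonic markers, 2 were, with sums between 7.43 and 28.4 CPM. None of 5 fibroblast or feeder cell markers reached 1 CPM in every input, with sums between 1.65 and 11.5 CPM. *Eif4a2* itself was between 53.8 and 94.2 CPM in EV inputs and between 69.1 and 86.8 CPM in the eIF4A2FL inputs. These 3′ tags do not tell the disrupted gene from the vector and check no label.

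Transcripts with at least 1 CPM in all 4 inputs were tested, which kept 10754 transcripts and 78 of the 86 members. Of complex I 36 members passed, of complex II 4, of complex III 9, of complex IV 13, and of complex V 16. Respiratory chain mRNAs are abundant in ESCs. The 86 members together took 2.22% and 2.43% of the gene reads in input EV, 2.09% and 2.69% in input eIF4A2FL, 2.63% and 2.56% in RIP eIF4A2FL, and 0.738% and 1.02% in RIP EV. The RIP EV libraries were thus the lowest of the 8, below every input and every RIP eIF4A2FL library. The median tested member had 187 CPM in the EV inputs, where the median of all transcripts tested was 22.4 CPM.

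**Figure D1:**
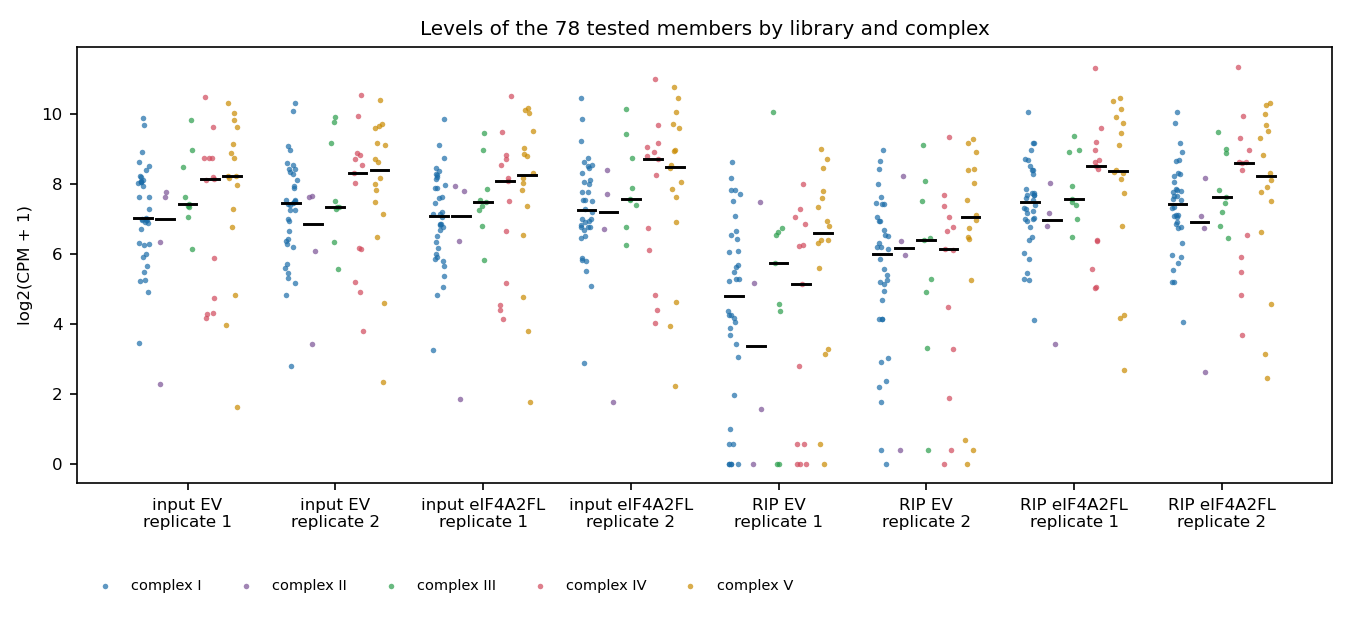
Levels of the 78 tested members in each of the 8 libraries, as log2(CPM + 1), with 1 point per gene, coloured by complex, and a black bar at the median of each complex. Inputs and RIP eIF4A2FL libraries have similar medians, the RIP EV libraries lie lower, and 12 and 3 members have no read in RIP EV replicates 1 and 2.

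Levels differed more between members than between complexes. By mean CPM over the 4 inputs, the median member had 151 CPM in complex I, 148 CPM in complex II, 179 CPM in complex III, 346 CPM in complex IV, and 316 CPM in complex V. The 10 highest members held 43.4% of the reads of all 86. The highest was *Cox6c*, a small structural subunit of complex IV, with 1443 and 1481 CPM in the EV inputs, beside 1466 and 2049 CPM in input eIF4A2FL. *Atp5g3*, which encodes the c subunit of the proton-driven ring of ATP synthase, followed with 1276 and 1354 CPM in the EV inputs, beside 1117 and 1762 CPM in input eIF4A2FL. The catalytic β subunit *Atp5b* (mean 1106 CPM) and the catalytic-head partner *Atp5a1* (897 CPM) were close to the highest member of complex I, the accessory subunit *Ndufb8* (1096 CPM), and to that of complex III, the hinge protein *Uqcrh* (906 CPM). In complex II the highest was the iron–sulfur subunit *Sdhb* (243 CPM). The ranges of *Atp5b* and *Ndufb8* over the inputs overlapped, as did those of *Uqcrh* and *Atp5a1*, so that the order within these pairs is not settled beyond the spread between libraries.

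Subunits that carry redox centres of complex I were of modest level. The mean input level was 113 CPM for *Ndufv1*, which binds NADH, 125 CPM for *Ndufv2*, 83.5 CPM for *Ndufs7*, 47.3 CPM for *Ndufs1*, and 47.0 CPM for *Ndufs8*. The mitochondrial acyl carrier protein *Ndufab1* was at 49.1 CPM and *Ndufs3*, the lowest tested member of complex I, at 7.67 CPM. In complex III, the heme-bearing *Cyc1* (155 CPM) and the Rieske iron–sulfur protein *Uqcrfs1* (179 CPM) were by mean above the core protein *Uqcrc2* (121 CPM). They were also above *Uqcrc1* (61.6 CPM), the lowest member of that complex. The ranges of *Cyc1* (111 to 186 CPM) and *Uqcrc2* (79.6 to 164 CPM) over the inputs overlapped, so that their order is not settled. In complex IV, *Cox4i1* (346 CPM) and *Cox5a* (457 CPM) were over 10 times higher than *Cox5b* (22.8 CPM). In complex II, the flavoprotein *Sdha* had 83.0 CPM, and the membrane anchors *Sdhc* and *Sdhd* had 212 and 4.63 CPM. The γ subunit *Atp5c1* that turns inside the catalytic head of complex V had 291 CPM.

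Low values of some members go with copies of their sequence elsewhere in the genome. For each member, the last 300 bases of its longest coding transcript were searched as 50-base windows for exact matches at other places of GRCm38. In 50 members no window had a copy, and their median mean input level was 151 CPM. In 26 members up to 50% of the windows had one, with a median of 293 CPM. In 10 members more than 50% had one, with a median of 27.6 CPM. These were *Ndufs5* and *Atp5g2* (every window), *Cox7c* (99.2% of windows), *Atp5l* (88.0%), *Ndufs3* (81.7%), *Cox7a2l* (73.3%), *Uqcrb* (69.7%), *Atp5h* (57.4%), *Ndufa12* (55.8%), and *Atp5j* (50.6%). Reads with more than 1 alignment are not assigned to a gene in the deposited table, so that the levels of these 10 genes are uncertain. *Ndufs5*, an accessory subunit present in each complex I, had 3 reads in the 4 inputs together.

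Several subunits have isoform genes, of which one is used in most tissues and others in heart and skeletal muscle, testis, or low oxygen. In each such family 1 isoform held most of the tags in the inputs. *Cox4i1* held 99.60% ± 0.0229 (SD, n = 2) of the COX4 tags in input EV and 99.88% ± 0.0633 in input eIF4A2FL, against the hypoxia-associated *Cox4i2*. *Cox6b1* held 98.31% ± 0.559 and 96.90% ± 0.145, against the testis isoform *Cox6b2*, and in RIP eIF4A2FL 95.05% ± 0.978. *Cox7b* held 99.55% ± 0.314 and 99.96% ± 0.0588, against *Cox7b2*. *Ndufa4*, named for complex I but now placed in complex IV, held 99.51% ± 0.223 and 97.56% ± 0.823, against *Ndufa4l2*. Of the 3 genes that encode the same mature c subunit, *Atp5g3* held 95.66% ± 2.95 in input EV and 97.98% ± 0.697 in input eIF4A2FL, and *Atp5g1* held 4.12% ± 2.86 and 1.81% ± 0.696, with *Atp5g2* limited by the copies named above. The muscle isoforms *Cox6a2* and *Cox8b* had no read in any of the 8 libraries, which allows up to 0.0627 CPM (3 counts over all libraries, counting error only). Their partners *Cox6a1* and *Cox8a* had 275 and 262 CPM and 425 and 473 CPM in the EV inputs. The muscle isoform *Cox7a1* was an exception, with 25.7 and 69.6 CPM in the EV inputs, beside 34.6 and 68.6 CPM in input eIF4A2FL and 81.1 and 93.0 CPM in RIP eIF4A2FL. Its relative *Cox7a2* had 283 and 457 CPM before the pull-down in EV cells and 269.6 and 447 CPM in eIF4A2FL cells. *Cox7a2l*, a relative of this family that joins complexes III and IV into supercomplexes, had 57.9 and 71.5 CPM in the EV inputs, beside 99.1 and 106 CPM in input eIF4A2FL.

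**Figure D2:**
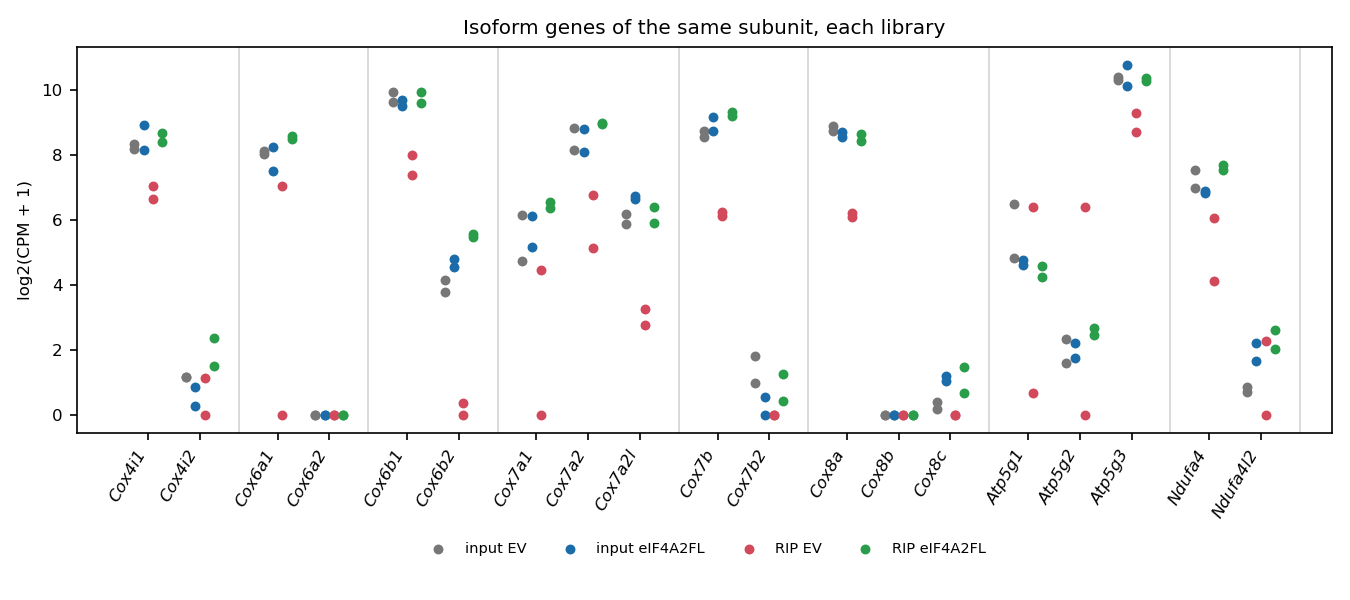
Levels of isoform genes of the same subunit, as log2(CPM + 1), with 1 point per library coloured by group and families separated by grey lines. *Cox6a2* and *Cox8b* lie at 0 in all 8 libraries, and *Cox7a1* lies between its widely used relative and 0 in the inputs and RIP eIF4A2FL libraries.

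The 8 members below the filter were *Cox6a2*, *Cox8b*, *Ndufs5*, *Cox4i2*, *Cox7b2*, the testis isoform *Cox8c*, *Ndufa4l2*, and *Atp5s*, which is named for ATP synthase but is not one of its structural subunits. Over the 4 inputs, *Cox4i2* had 19 reads, *Cox7b2* 18, *Cox8c* 15, *Ndufa4l2* 41, and *Atp5s* 50.

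Promoter sequence is shown for the pairs in which the muscle isoform was silent (*Cox8b* beside *Cox8a*) or expressed (*Cox7a1* beside *Cox7a2*). The sequences are the 250 bases before the annotated start, 5′ to 3′ on the gene's strand, from RefSeq on GRCm38.p6. *Cox8a* is at chr19:7217617-7217866 (minus strand), *Cox8b* at chr7:140900447-140900696 (minus strand), *Cox7a2* at chr9:79759854-79760103 (minus strand), and *Cox7a1* at chr7:30183921-30184170 (plus strand). Capitals mark any of 4 motifs named in the next paragraph, of which only *Cox7a2* holds one here, the GC box GGGCGG. The 300-base window of *Cox8a*, which adds 50 bases after the start, holds 2 matches of the GABPA motif that are not within the 250 bases shown.
Cox8a: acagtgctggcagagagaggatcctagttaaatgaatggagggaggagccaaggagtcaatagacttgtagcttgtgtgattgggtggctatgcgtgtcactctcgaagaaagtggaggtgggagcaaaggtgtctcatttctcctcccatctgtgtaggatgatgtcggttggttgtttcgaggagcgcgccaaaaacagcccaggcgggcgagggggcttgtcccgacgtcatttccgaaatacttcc
Cox8b: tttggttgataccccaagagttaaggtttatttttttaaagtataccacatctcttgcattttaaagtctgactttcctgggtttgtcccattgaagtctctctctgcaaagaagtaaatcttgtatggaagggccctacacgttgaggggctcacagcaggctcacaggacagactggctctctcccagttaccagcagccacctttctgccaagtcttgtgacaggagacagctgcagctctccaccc
Cox7a2: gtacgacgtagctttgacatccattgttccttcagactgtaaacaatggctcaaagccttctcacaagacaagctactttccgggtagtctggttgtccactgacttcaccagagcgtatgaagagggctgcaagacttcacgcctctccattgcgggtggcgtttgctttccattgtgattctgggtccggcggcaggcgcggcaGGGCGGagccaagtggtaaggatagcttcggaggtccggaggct
Cox7a1: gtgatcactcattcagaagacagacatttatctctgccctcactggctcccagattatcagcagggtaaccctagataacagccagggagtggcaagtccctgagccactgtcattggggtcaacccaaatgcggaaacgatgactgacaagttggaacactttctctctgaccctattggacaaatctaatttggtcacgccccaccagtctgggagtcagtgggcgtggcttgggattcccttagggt
These windows hold 11 CpG dinucleotides in *Cox8a* and 1 in *Cox8b*, and 14 in *Cox7a2* and 4 in *Cox7a1*.

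The RefSeq table held 74 promoters for 69 of the 86 members, each with 250 bases before and 50 bases after the start. Searched on both strands, the NRF1 motif TGCGCANGC was in 17.6% of member promoters, in 9.30% of the promoters of protein-coding transcripts tested, and in 4.16% of the 32851 promoters of the table. The GABPA motif CCGGAAGT was in 6.76%, 8.79%, and 3.89% of these sets, the YY1 motif AANATGGCG in 13.5%, 5.57%, and 2.38%, and the SP1 motif GGGCGG in 40.5%, 65.7%, and 35.7%. NRF1, GABPA, and YY1 are known regulators of respiratory genes. A match of letters is no evidence of binding, and members with several promoters count more than once.

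The comparison of the inputs asks whether the cell lines differed in these mRNAs before the pull-down. In bulk lysates, the share of cells that express a gene and the RNA per cell cannot be told apart. No member was called at an adjusted p of 0.05 (edgeR quasi-likelihood test, Benjamini-Hochberg over 10754 transcripts), and 0.0% and 0.0% of all transcripts were called higher and lower. At an unadjusted p of 0.05, *Cox7a2l* was higher and *Atp5g1*, *Ndufa1*, and *Sdhd* were lower in input eIF4A2FL (1.28% and 3.85% of members), where all transcripts gave 3.74% and 3.66%. DESeq2 on the same libraries called none of the members. The median log2FC of the members was 0.05, beside -0.01 for all transcripts. Of the 78 members, 76 were within 2-fold (97.4%, against 92.6% of all transcripts). The 2 outside were *Sdhd*, with 3.85 and 9.67 CPM in the EV inputs, beside 2.60 and 2.41 CPM in input eIF4A2FL, and *Atp5g1*, with 27.4 and 88.9 and 26.4 and 23.6 CPM.

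The comparison of RIP eIF4A2FL with input eIF4A2FL asks whether these mRNAs come down with the tagged helicase above or below their abundance. Most were recovered within 2-fold of it. CPM describes the make-up of a library and not how much RNA a pull-down recovered. The median log2FC was -0.08 over the members, beside 0.02 over all transcripts tested, and 71 of 78 members were within 2-fold, 91.0% against 76.7% of all transcripts. By mean log2(CPM + 1), RIP and input levels in eIF4A2FL cells had a Pearson correlation of 0.96 across the 78 members and of 0.91 across all transcripts, as a description across genes of the same 4 libraries. Of protein-coding transcripts tested, 78.9% were within 2-fold. In input eIF4A2FL the median member had 180 CPM, where the median of all transcripts was 22.2 CPM. The part of level in these shares and correlations was not tested. Of the 10 highest members of the inputs, 8 were among the 10 highest of RIP eIF4A2FL.

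**Figure D3:**
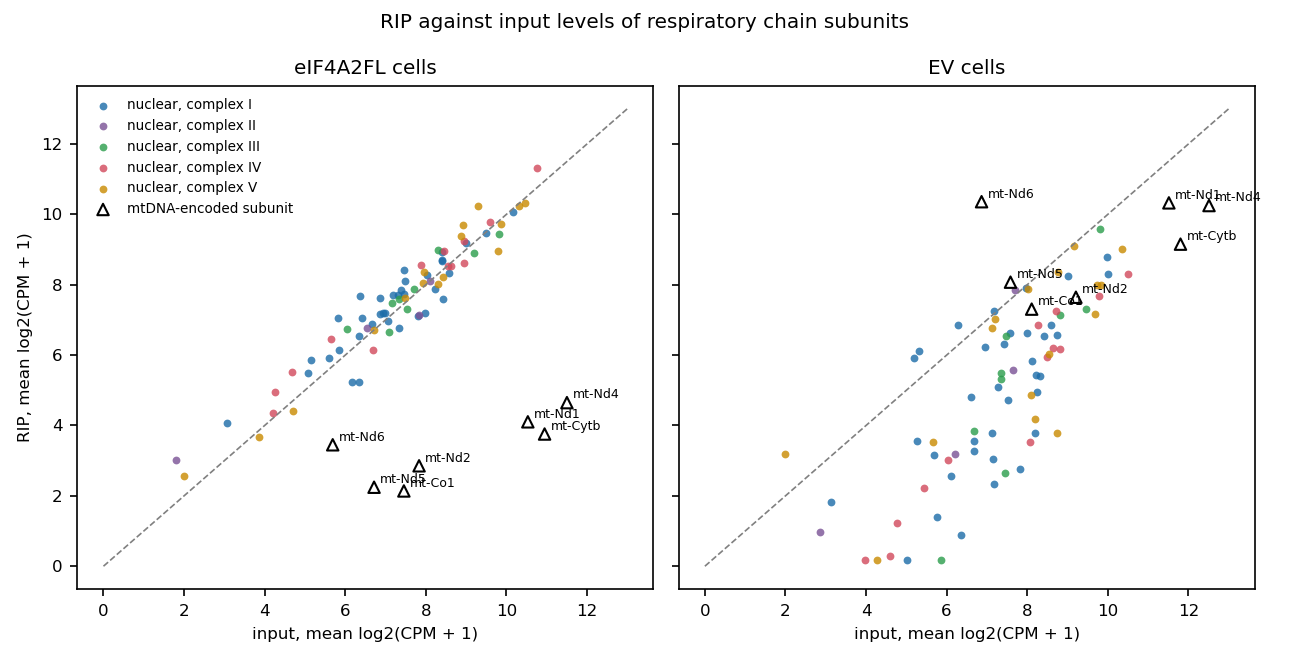
Mean log2(CPM + 1) in RIP against input in eIF4A2FL cells and in EV cells, with 1 point per nuclear member coloured by complex, open triangles for the 7 tested mtDNA-encoded subunits, and a dashed line of equal levels. In eIF4A2FL cells the nuclear members follow the line and all 7 triangles lie far below it, and in EV cells most nuclear members lie below the line.

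Few members were called in eIF4A2FL cells. *Ndufs1* rose, 1 of 78 (1.28%, against 8.44% of all transcripts), and 7 members fell (8.97%, against 8.46%). Both RIP libraries lay above both inputs in 20 members (25.6%, against 31.6%) and below both in 27 (34.6%, against 30.1%), by CPM scaled with TMM factors. Shares of falls and of separated groups were thus near those of all transcripts. *Ndufs1*, the largest iron–sulfur subunit of complex I, had 56.5 and 54.5 CPM in input and 150.3 and 114 CPM in RIP. Its log2FC was 0.94 ± 0.27 (SE, n = 2 against 2, edgeR adjusted p = 0.041), and the groups did not overlap. *Ndufs1* was also higher by value without a tagged protein, with 43.5 and 35.0 CPM in the EV inputs, beside 66.5 and 69.7 CPM in RIP EV (log2FC 0.76 ± 0.72, adjusted p = 0.64). The difference of its change between the cell lines was 0.17 ± 0.56 on the log2 scale (edgeR adjusted p = 0.91). *Ndufs7*, which carries the last iron–sulfur cluster before the quinone, had 62.3 and 108 CPM in input and 211 and 199 CPM in RIP. Its log2FC of 0.97 ± 0.30 was the larger one, but its edgeR adjusted p of 0.052 missed the threshold.

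The 7 members that fell were 5 accessory subunits of complex I, 1 subunit of complex II, and 1 of complex V. *Ndufb11*, in the membrane arm of complex I, fell from 59.1 and 108 CPM to 37.9 and 35.4 CPM, with a log2FC of -1.48 ± 0.31 (edgeR adjusted p = 0.014). *Ndufa8* fell from 49.8 and 101 CPM to 37.4 and 35.9 CPM (-1.34 ± 0.33, adjusted p = 0.025), and *Ndufb5* from 333 and 354 CPM to 195 and 189 CPM (-1.14 ± 0.26, adjusted p = 0.018). In these 3 genes, as in the other 4, both RIP libraries lay below both inputs. *Atp5o*, a peripheral stalk subunit that holds the catalytic head of ATP synthase still, fell from 733 and 1063 CPM to 551 and 454 CPM (-1.14 ± 0.29, adjusted p = 0.027). *Ndufa9*, at the hinge of the arms of complex I, fell from 237 and 266 CPM to 131 and 161 CPM (-1.09 ± 0.27, adjusted p = 0.026). *Sdhc* and *Ndufb10* had log2FC of -1.01 and -0.99, with edgeR adjusted p of 0.032 and 0.04. In complex II, the other membrane anchor *Sdhd* had 2.60 and 2.41 CPM in input (12 and 15 reads) and 9.64 and 5.11 CPM in RIP. Its log2FC of 1.25 ± 0.51 (edgeR adjusted p = 0.12) did not pass the threshold. *Sdha* and *Sdhb* had log2FC of -0.08 and -0.32.

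Without RIP eIF4A2FL replicate 1 or 2, which leaves 1 RIP library whose spread is taken from the inputs, only *Ndufb11* was still called (1.28%, against 4.8% and 4.23% of all transcripts). The fold changes stayed close to those of both libraries, moving by at most 0.21 and 0.26 on the log2 scale in the 7 members that fell, and *Ndufs1* was at 0.77 and 1.08. Without input eIF4A2FL replicate 2, 4 of the 8 calls were lost and a fall moved by up to 0.54. With a replicate block, which pairs same-numbered libraries, *Ndufs1*, *Atp5o*, *Ndufb10*, and *Sdhc* lost their calls. Scaled by library size alone, 3 members rose and 2 fell, and the median log2FC was 0.22 for the members and 0.32 for all transcripts. Of all 10754 transcripts, 1933 and 567 were then called higher and lower in place of 908 and 910.

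**Figure D4:**
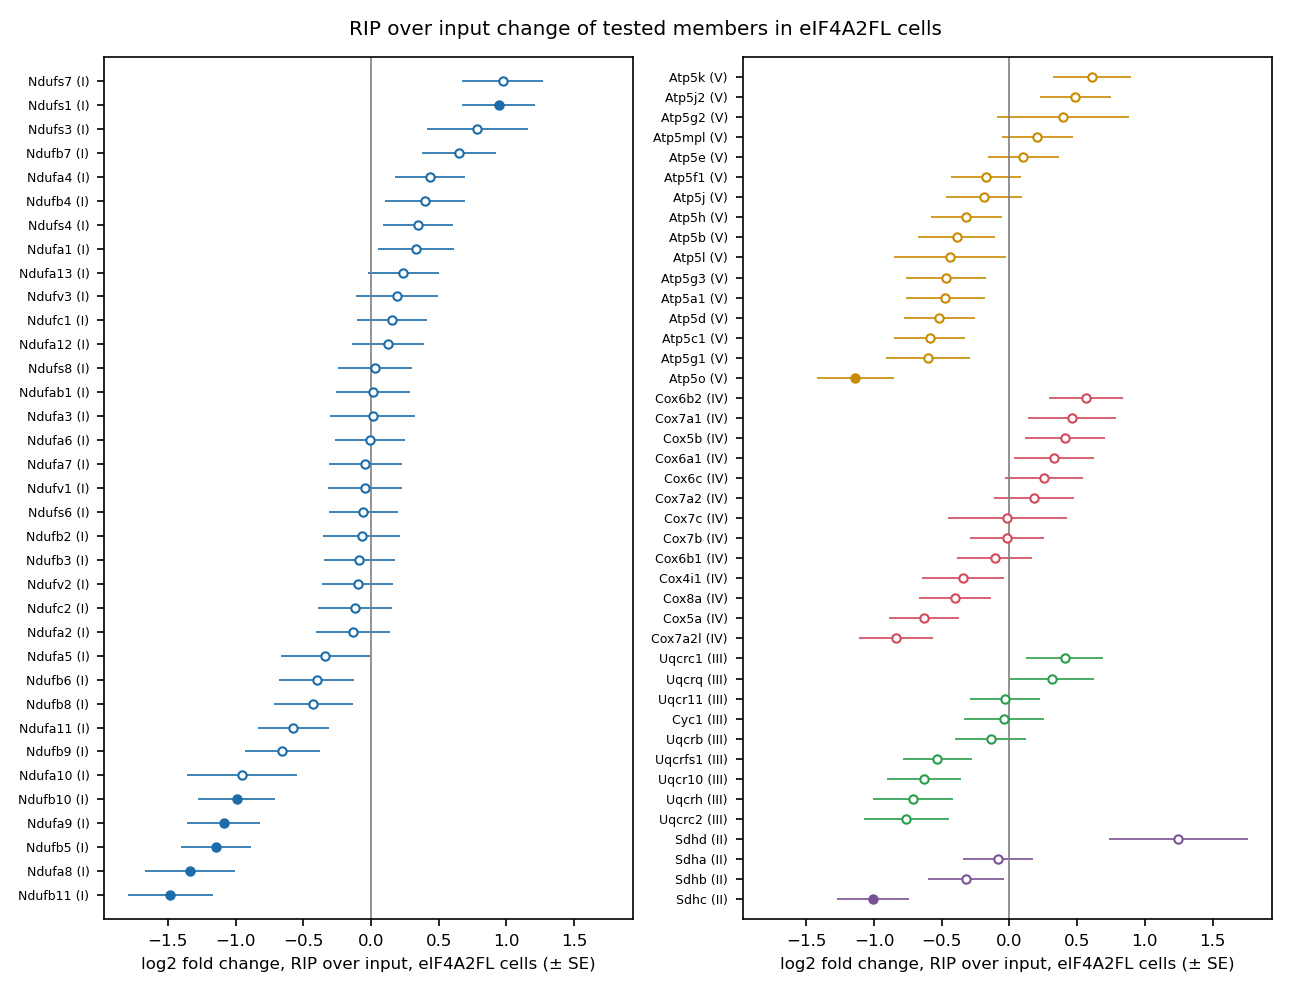
Log2 fold change of RIP over input in eIF4A2FL cells for the tested members, except 1 not shown, with the standard error as bar, complex I on the left and complexes II to V on the right. Filled points are the 8 members past an adjusted p of 0.05, of which *Ndufs1* is the 1 above 0.

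By complex, the median log2FC in eIF4A2FL cells lay between -0.35 and -0.01. It was -0.04 in complex I, -0.20 in complex II, -0.14 in complex III, -0.01 in complex IV, and -0.35 in complex V. All 9 tested members of complex III and all 13 of complex IV were within 2-fold and uncalled. In complex III, *Cyc1* had a log2FC of -0.04, *Uqcrfs1* -0.53, *Uqcrc1* 0.41, *Uqcrc2* -0.76, and *Uqcrh* -0.71. In complex IV, *Cox4i1* had -0.35, *Cox5a* -0.63, *Cox5b* 0.41, and *Cox6c* 0.26. The catalytic head of ATP synthase gave -0.47 for *Atp5a1*, -0.39 for *Atp5b*, and -0.59 for *Atp5c1*, and its ring subunit *Atp5g3* -0.47. The highest values of complex V were in 2 small membrane subunits at which ATP synthase pairs into dimers or which stand next to its ring. *Atp5k* had 517 and 769 CPM in input and 1142 and 1271 CPM in RIP (0.61 ± 0.29, adjusted p = 0.17), and *Atp5j2* had 465 and 503 and 851 and 824 CPM (0.49 ± 0.26, adjusted p = 0.22). In both, the RIP libraries lay above the inputs without passing the test.

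Members are short mRNAs, and length moved with the RIP over input change among all transcripts. The longest annotated transcript had a median of 1088 bases over the tested members and 3423 bases over protein-coding transcripts tested. The Spearman correlation of this length with the log2FC in eIF4A2FL cells was 0.32 across the 10087 protein-coding transcripts and -0.08 across the members. With the mean input level, which enters the change as well, it was -0.26 and -0.35, so that among the members the change was lower where the level was higher. Up to 1000 bases, 36 members had a median log2FC of -0.11 and 398 protein-coding transcripts one of -0.20. From 1000 to 2000 bases, 25 members had -0.02 and 1604 transcripts -0.20, and above 2000 bases 17 members had -0.08 and 8085 transcripts 0.14. Length here is that of the longest annotated transcript of a gene, coding or not, which need not be the mRNA that was read. *Cox6c* counts as 3038 bases and *Ndufb2* as 4371. The classes may thus not match mRNAs of like length, and the part of length in these changes was not tested.

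The mtDNA-encoded partners of these subunits behaved otherwise. Of the 13 mtDNA-encoded subunit mRNAs, 7 passed the filter, and all 7 fell from input to RIP in eIF4A2FL cells, with a median log2FC of -5.98 (edgeR adjusted p of 0.031 for mt-Nd6 and lower for the other 6). In complex I, mt-Nd1 fell from 1498 and 1464 CPM to 13.8 and 18.9 CPM (-6.80), and the 5 tested mtDNA-encoded subunits ran from -7.11 to -2.28, below the lowest of the 36 nuclear ones at -1.48. In complex III, mt-Cytb fell from 1579.6 and 2471 CPM to 11.3 and 13.8 CPM (-7.62), where the 9 nuclear members ran from -0.76 to 0.41. In complex IV, mt-Co1 fell from 177 and 173 CPM to 3.21 and 3.61 CPM (-5.98), where the 13 nuclear members ran from -0.84 to 0.56. No tested mtDNA-encoded subunit belonged to complex V. The untested mt-Atp6, mt-Atp8, mt-Co2, mt-Co3, and mt-Nd4l had no read in any of the 8 libraries. The untested mt-Nd3 had 3 reads, all in input eIF4A2FL replicate 2. Why these mRNAs were not counted was not tested, so that the ratios below cover only the 7 tested ones. The summed level of the tested nuclear members was 3.33 and 3.49 times that of the 7 mtDNA-encoded mRNAs in input eIF4A2FL, and 471 and 237 times in RIP eIF4A2FL. In EV cells it was 2.49 and 1.18 times in input and 1.20 and 2.09 times in RIP, with overlapping groups. From input EV to RIP EV, 2 of the 7 mtDNA-encoded mRNAs were positive by value and 5 negative. The highest was mt-Nd6, from 98.5 and 136 CPM to 2823 and 611 CPM (log2FC 3.85, edgeR adjusted p = 0.072). In the inputs the mtDNA-encoded mRNAs also had a median log2FC of -1.05 in eIF4A2FL against EV cells, with none called.

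**Figure D5:**
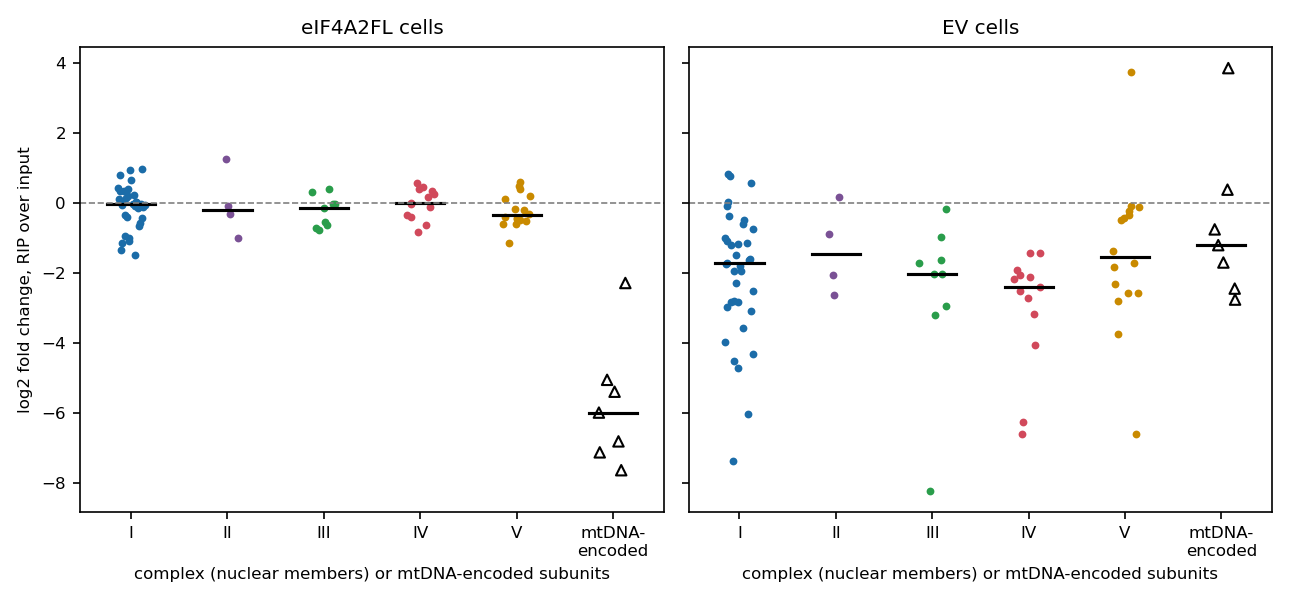
Log2 fold change of RIP over input in eIF4A2FL cells and in EV cells, with 1 point per tested nuclear member by complex, open triangles for the 7 mtDNA-encoded subunits, and a black bar at each median. In eIF4A2FL cells the nuclear medians lie between -0.35 and -0.01 and the mtDNA-encoded median at -5.98. In EV cells the nuclear medians lie between -2.39 and -1.47. The mtDNA-encoded median there is at -1.20, with values from -2.76 to 3.85.

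The comparison of RIP EV with input EV shows what antibody and beads recover where no tagged protein is present. By value the members were under-recovered, with a median log2FC of -1.92, beside -0.65 for all transcripts, and 72 of 78 were negative. Other short mRNAs were low too. Up to 1000 bases, the members had a median of -2.13 and protein-coding transcripts one of -1.81. The median of the members was below that of protein-coding transcripts by 1.32 over all lengths, by 0.32 up to 1000 bases, by 0.70 from 1000 to 2000 bases, and by 0.55 above 2000 bases. These classes go by the longest annotated transcript and may not match mRNAs of like length. The part of length in the low values of the members was not tested. Both RIP EV libraries lay below both EV inputs in 62 members (79.5%, against 45.7% of all transcripts) and above both in 2 (2.56%, against 14.2%). The 2 RIP EV libraries themselves differed by more than 2-fold in 40 of the 78 members. Within 2-fold were 48.7% of the members, against 46.4% of all transcripts. No read in at least 1 of the 2 was found for 15 members, and for 5261 of all 10754 transcripts. No member was called (edgeR, 0.0% of all transcripts lower and 0.0% higher). At an unadjusted p of 0.05, 35 members (44.9%) were lower and none higher, against 25.2% and 4.28% of all transcripts. DESeq2 on the same 4 libraries called 28 of the 77 members with an adjusted p lower (36.4%, against 5.95% of the 8460 transcripts with one). EdgeR on all 8 libraries called 36 members lower (46.2%, against 26.3% of all transcripts).

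Complex IV was lowest by value, with a median log2FC of -2.39, before complex III (-2.03), complex I (-1.73), complex V (-1.54), and complex II (-1.47). All 13 members of complex IV were negative, from -6.59 to -1.43. *Cox6c* had 1443 and 1481 CPM in the EV inputs, beside 156 and 643 CPM in RIP EV, and *Cox7b* had 429 and 371 and 74.8 and 69.4 CPM. *Cox8a* had 425 and 473 CPM in the EV inputs, beside 73.4 and 67.9 CPM in RIP EV. In all 3, both RIP EV libraries lay below both EV inputs, but the 2 RIP EV values of *Cox6c* were far apart. *Cox6a1* shows such unevenness too, with 0 and 132 CPM in the 2 RIP EV libraries. In complex V, *Atp5g2* had 83.6 and 0 CPM and *Atp5g1* 82.6 and 0.598 CPM in them. *Ndufs4*, an accessory subunit of complex I with 77.6 and 76.8 CPM in the EV inputs, beside 101 and 133 CPM in RIP EV, and *Ndufs1*, given above, were the only 2 members with both RIP EV libraries above both EV inputs.

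RIP eIF4A2FL against RIP EV shares its control libraries with the preceding comparison, and its values are the counterpart of those. The median log2FC of the members was 1.53, beside 0.67 for all transcripts. Both RIP eIF4A2FL libraries lay above both RIP EV libraries in 64 members (82.1%, against 47.2% of all transcripts) and below both in *Atp5h* alone (1.28%, against 14.5%). No member was called (edgeR, 0.0% of all transcripts higher and 0.0% lower). At an unadjusted p of 0.05, 30 members (38.5%) were higher and none lower, against 24.0% and 5.31% of all transcripts. By complex the median log2FC was 2.56 in complex IV, 1.56 in complex III, 1.48 in complex I, 1.21 in complex II, and 1.18 in complex V. DESeq2 on the same libraries called 24 of the 77 members with an adjusted p higher (31.2%, against 9.18% of the 9077 transcripts with one). EdgeR on all 8 libraries called 35 members higher (44.9%, against 24.8% of all transcripts). Without RIP EV replicate 1 or 2, the lone RIP EV library is assumed to vary like RIP eIF4A2FL, whose spread was 23.1% against 171%. EdgeR then called 51 and 61 members higher (65.4% and 78.2%, against 43.8% and 59.0% of all transcripts).

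The difference between the cell lines in the RIP over input change was tested on all 8 libraries. The change was called higher in eIF4A2FL cells in 18 of 78 members (23.1%, against 19.2% of all transcripts) and lower in none (2.1% of all transcripts). The share called higher was thus near that of all transcripts. The median difference was 1.56 over the members, beside 0.64 over all transcripts. The 18 were 6 members of complex I, 2 of complex III, 7 of complex IV, and 3 of complex V. The 5 largest values rest on 8 reads or fewer in RIP EV. *Uqcrc1*, a core protein of complex III, had 56.1 and 74.7 CPM in input eIF4A2FL and 127 and 87.6 CPM in RIP eIF4A2FL, and 68.9 and 46.8 CPM in the EV inputs, beside 0 and 0.299 CPM in RIP EV. Over both libraries this was 2295 reads in RIP eIF4A2FL and 1 read in RIP EV, a ratio of pooled CPM of 584 with an exact 95% counting interval of 105 to 23075. *Ndufb4* and *Cox6b2* also had 1 read in RIP EV, beside 1237 and 959 reads in RIP eIF4A2FL. *Cox7c* had 1 and 474 reads, and *Ndufs7* had 8 and 4358 reads. Among better covered members, *Cox8a* had an interaction log2FC of 2.27 ± 0.35 (edgeR adjusted p = 0.018), *Cox7b* 2.47 ± 0.39 (adjusted p = 0.018), and *Cox6b1* 1.97 ± 0.43 (adjusted p = 0.022). The other 10 called members were *Ndufa1*, *Ndufb2*, *Ndufb6*, and *Ndufb10* of complex I, *Uqcr11* of complex III, *Cox5b* and *Cox7a2l* of complex IV, and *Atp5e*, *Atp5j*, and *Atp5l* of complex V, with interaction log2FC from 1.82 (*Ndufb10*) to 6.16 (*Atp5l*, 1 read in RIP EV). Limma voom with group weights called none of the members and 0.0% of all transcripts. Without RIP EV replicate 1 or 2, where the spread comes from the other, tighter groups alone, edgeR called 45 and 55 members higher (57.7% and 70.5%, against 35.9% and 54.0% of all transcripts). Without RIP eIF4A2FL replicate 1 or 2 it called none, and 0.0% of all transcripts.

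Other genes of the pathway give the setting, from lists that hold no member. In eIF4A2FL cells, 45 of 47 assembly factors were tested, with a median RIP over input log2FC of -0.23; none rose and 4 fell (8.89%, against 8.46% of all transcripts), a share near that of all transcripts. Of the 4, *Coa5* and *Coa4*, needed to assemble complex IV, had log2FC of -1.70 and -1.28. *Cox10*, which takes part in making the heme of complex IV, had -0.98, and *Bcs1l*, which inserts the Rieske protein into complex III, had -1.01. Of 15 electron carriers and transcription regulators of respiratory genes, 13 were tested, with a median of 0.60; 1 rose and 1 fell (7.69% each). Cytochrome c (*Cycs*), which carries electrons from complex III to complex IV, fell from 20.6 and 25.7 CPM in input to 7.14 and 7.72 CPM in RIP, with a log2FC of -1.94. *Polrmt*, the mitochondrial RNA polymerase, rose with a log2FC of 1.20. All 13 enzymes of the tricarboxylic acid cycle were tested, with a median of -0.25; none rose, and *Suclg2* (-1.15) and *Dlst* (-0.91) fell (15.4%). In EV cells the median RIP over input log2FC was -1.57 for assembly factors, -0.75 for carriers and regulators, and -1.09 for the cycle enzymes, with none called.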

How the data were processed

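RNA of 4 inputs and 4 anti-Flag RIPs was measured as QuantSeq 3′ libraries. Per the labels and the methods, the authors mapped reads to mm10 with STAR (version 2.5.3a) and counted reads per gene with HTSeq (version 0.11.2). The deposited values are raw counts, and neither strand setting nor annotation release was stated, so that overlapping and antisense genes are uncertain. Summary lines of unassigned reads, 31.8% to 80.1% of a library, stayed out of totals and tests. Of 52550 identifiers, 52403 matched GENCODE M21, which gave symbols, classes, and lengths.

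Transcripts with at least 1 CPM in all 4 inputs were tested with edgeR (version 4.0.16, R version 4.3.3; TMM factors, quasi-likelihood test, Benjamini-Hochberg over 10754 transcripts, threshold 0.05). Each comparison was fitted on its own 4 libraries, because RIP EV replicates differed several times more than the others and a joint fit shares that spread. The difference between the cell lines used all 8. Alternatives used DESeq2 (version 1.42.0), limma (version 3.58.1), other libraries, scalings, filters, a replicate block, and each library left out.

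The members and gene lists were chosen with earlier results of these data known. Named genes are, per comparison, the 5 largest called rises and falls whose libraries do not overlap, the highest and lowest member per complex, a list of core subunits, isoform families, complex II, and members that are no subunit of the complex named. Members named outside this rule (such as *Ndufs4*, *Ndufb10*, *Atp5k*, and *Atp5j2*) and the list genes were chosen after their values were seen. 1 member is counted but not reported by itself here. Intervals and floors cover counting error only.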

Additional observations from a re-analysis of the deposited data

Results flagged for a closer look

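The change from input to RIP was called different between the cell lines in 18 of the 78 tested members. All 18 were higher in eIF4A2FL cells (23.1%, against 19.2% of all transcripts), by the edgeR interaction test on all 8 libraries. This share was near that of all transcripts. Limma voom with group weights on the same libraries called none of the members and 0.0% of all transcripts. Among those in which both RIP eIF4A2FL libraries lay above both RIP EV libraries, the 5 largest differences in log2 change were 8.63 for *Uqcrc1*, 7.78 for *Ndufb4*, 6.91 for *Ndufs7*, 6.85 for *Cox6b2*, and 6.72 for *Cox7c*. Each of these 5 had 8 reads or fewer over both RIP EV libraries, and the replicate spread of RIP EV was several times that of the other groups, at 171% against 23.1% to 30.1%. The part of this spread in the 18 differences was not tested. With 2 libraries per group no library could be examined as an outlier within its group.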

How the results depend on the processing

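With 2 libraries per group and 2044853 reads on genes in the shallowest one, call counts of the members moved with the model. For RIP eIF4A2FL against input eIF4A2FL (1 higher, 7 lower), library size alone gave 3 and 2, DESeq2 on the same libraries 2 and 8, edgeR on all 8 libraries 0 and 0, DESeq2 on all 8 1 and 2, limma voom 2 and 8, filterByExpr 0 and 7, and no filter 2 and 8. Leaving out single libraries gave 0 to 1 higher and 1 to 7 lower. For RIP eIF4A2FL against RIP EV (0 and 0), DESeq2 on the same libraries gave 24 higher (31.2%, against 9.18% of transcripts with an adjusted p). EdgeR on all 8 gave 35 (44.9%, against 24.8% of all transcripts), and DESeq2 on all 8 gave 44. For RIP EV against input EV (0 and 0), the same models gave 28, 36, and 50 lower, DESeq2 on all 8 also 2 higher, and leaving out libraries 0 to 61 lower and 0 to 1 higher. For the inputs (0 and 0), leaving out libraries gave 0 to 1 lower, and all other alternatives gave 0. For the difference between the cell lines (18 and 0), limma voom gave 0, and leaving out libraries 0 to 55 higher and 0 to 1 lower. A count without a share of all transcripts beside it is not read as particular to the members. The causes of these moves were not tested.

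A fit with a replicate block gave 0 higher and 4 lower for RIP eIF4A2FL against input eIF4A2FL, 16 higher for RIP eIF4A2FL against RIP EV, 30 lower for RIP EV against input EV, and 14 higher for the difference between the cell lines. It changed no count of the inputs. No share of all transcripts is given for this fit, so that its counts are not read as particular to the members. Same-numbered libraries did not deviate together beyond a correlation of 0.12, so that the number is not taken as a pairing.

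No called member changed sign under any alternative. Of 112 values of the 8 called members in RIP eIF4A2FL against input eIF4A2FL, 42 lost the call, and of 270 values of the 18 members in the difference between the cell lines, 129 did. The median log2FC of the members kept its sign under every alternative for the comparisons with RIP EV, whereas for RIP eIF4A2FL against input eIF4A2FL it was 0.22 with library size alone and for the inputs -0.11 without input eIF4A2FL replicate 2.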
